A study of Homo sapiens with 12 samples.

Results

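Seminal plasma was compared with medium alone in Ect1 cells, on 8 of the 12 arrays of the series. The members were the 4 arrays titled seminal plasma replicates 1 to 4 and the 4 titled control replicates 1 to 4, chosen from these labels and not from any measured value. Ect1 is a human ectocervical squamous epithelial line immortalised with papillomavirus oncogenes, and each array was an Affymetrix Human Genome U133 Plus 2.0 array. Both groups were confluent monolayers in serum-free keratinocyte medium with EGF, bovine pituitary extract and calcium. For 10 h the controls received this medium alone, and the treated wells received it with 10% of its volume replaced by human seminal plasma from a pool. The remaining 4 arrays, from cells given TGFB3 at 5 ng/ml for 10 h, entered only through the estimate of the spread. Each array held RNA from its own set of 4 wells and is called a biological replicate by the submitters. A single immortalised line in monolayer lacks the stratified layers, stroma and leukocytes of the cervix, and the labels name neither the number of donors in the pool nor any batch.

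Seminal plasma is the fluid fraction of semen. It carries zinc, E-series prostaglandins, TGF-beta and activin family proteins, cytokines and the proteases of the prostate and seminal vesicles. The ectocervix meets it first after insemination, and its epithelium is known to answer with chemokines and cytokines that draw leukocytes. Inside a cell, free zinc is bound by metallothioneins and pumped out by exporters of the SLC30 family, and the zinc-sensing transcription factor MTF1 raises the metallothionein genes and SLC30A1. The comparison asks which transcripts of ectocervical cells differ after contact with this fluid.

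The cells were checked against their label first. Of 15 measured markers of squamous ectocervical epithelium, 13 had a signal of at least 1000 on all 8 arrays, among them KRT5, KRT14, KRT17 and TP63. Their summed signal ran from 235554 to 362178 in the controls and from 374180 to 570107 with seminal plasma. None of the 15 passed the threshold of the comparison below, and their median log2 fold change was -0.14. The higher sum is therefore not a rise of these markers as a set. None of the 9 leukocyte markers reached 1000 on all 8 arrays, and their sum ran from 837 to 1257 in the controls and from 479 to 1237 with seminal plasma. None of the markers of sperm or of the glands that make seminal plasma reached 1000 on all 8 arrays either. The sum of 8 prostate and seminal vesicle markers was 1036 to 1413 in the controls and 1413 to 2135 with seminal plasma, and that of 6 sperm and testis markers was 292 to 340 and 311 to 623, with 1 of the 8 (SEMG1) and 3 of the 6 (PRM2, AKAP4 and SMCP) under 100 on every array. None of the 8 and none of the 6 passed the threshold. The columnar keratins KRT8, KRT18 and KRT19 were bright on all 8 arrays, as they often are in cultured squamous lines.

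The arrays of seminal plasma replicates 3 and 4 differed from all others. Their median signals were 177.6 and 131.5, against 103.8 and 97.2 in seminal plasma replicates 1 and 2 and 88.1 to 101.7 in the controls. Only 8.01% and 12.8% of their probe sets lay under a signal of 16, and their 100 brightest probe sets held 18.41% and 15.36% of all signal. Among the seminal plasma arrays, the median absolute log2 difference was 0.424 between replicates 1 and 2, 0.603 between 3 and 4, and 0.661 to 0.948 across these pairs. The controls also came in pairs to a lesser degree, with 0.197 between controls 3 and 4 against 0.339 to 0.383 for the other 5 pairs of controls. Results are therefore given for replicates 1 and 2 apart from 3 and 4. A fit without a pair rests on only 2 treated arrays, and losing a call there can come from the lower number as well as from a smaller difference.

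With limma over all probe sets, 362 genes rose and 268 fell with seminal plasma at an adjusted p of 0.05, which is 1.84% and 1.36% of the 19682 genes measured and 3.20% in all. At the level of probe sets 1608 of 54613 passed (2.94%). The gene shares of 1.84% and 1.36% apply beside every list count below, and a single call in a list is not a result about that list. The difference reached 1 log2 unit for 299 of the genes that rose and 204 of those that fell, and 3 log2 units for 24 and 10. The 630 calls use a spread shared by control, seminal plasma and TGFB3 arrays. On the 8 arrays alone 83 genes passed, 79 of them among the 630. With a separate spread per group 8 passed, 7 of them among the 630. Seminal plasma arrays differed more from each other (median absolute log2 difference 0.424 to 0.948) than controls did (0.197 to 0.383). The shared spread, and each SE from it, can therefore be too small for seminal plasma. Without replicates 3 and 4, 206 genes passed (1.05%), 130 higher (0.661%) and 76 lower (0.386%), and 142 of these were among the 630. That is 22.5% of the 630 genes and 68.9% of the 206. Without replicates 1 and 2, 6229 genes passed (31.6%), 3184 higher (16.2%) and 3045 lower (15.5%). The direction of all 630 genes was the same on each of the 4 seminal plasma arrays. Choosing genes by their mean shift on these same arrays favours this, so it is no separate sign of agreement. The median absolute log2 difference of the 630 from the control mean was 1.30, 0.95, 1.59 and 1.62 in replicates 1 to 4. The authors' deposited table calls 3955 probe sets (7.24%), 2284 of them higher and 1671 lower, all with a fold of at least 2.

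The balance of rises and falls differed between scalings of the arrays. Of the called genes 57.5% were higher, against 58.9% of 506 after quantile normalization and 36.3% of 262 after each array was centred on its median. Centring moved the all-gene median of the log2 fold change from 0.11 to -0.28, while quantile normalization moved it to -0.01. A set of 83 called genes, 62 higher and 21 lower, passed in each of the 12 fits that left out 1 array, and 387 of the 630 passed in 6 or fewer of them. The rule for named genes takes in 103 called genes, of which 62 did not pass without replicates 3 and 4 and 39 not after median centring. Those lost after median centring include CXCL2, CXCL3, IL6, HBEGF, FOSL1, MAFF, TAGLN and ITGA5. Arrays of 1 culture cannot tell fewer cells of a kind from less RNA per cell.

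**Figure D1:**
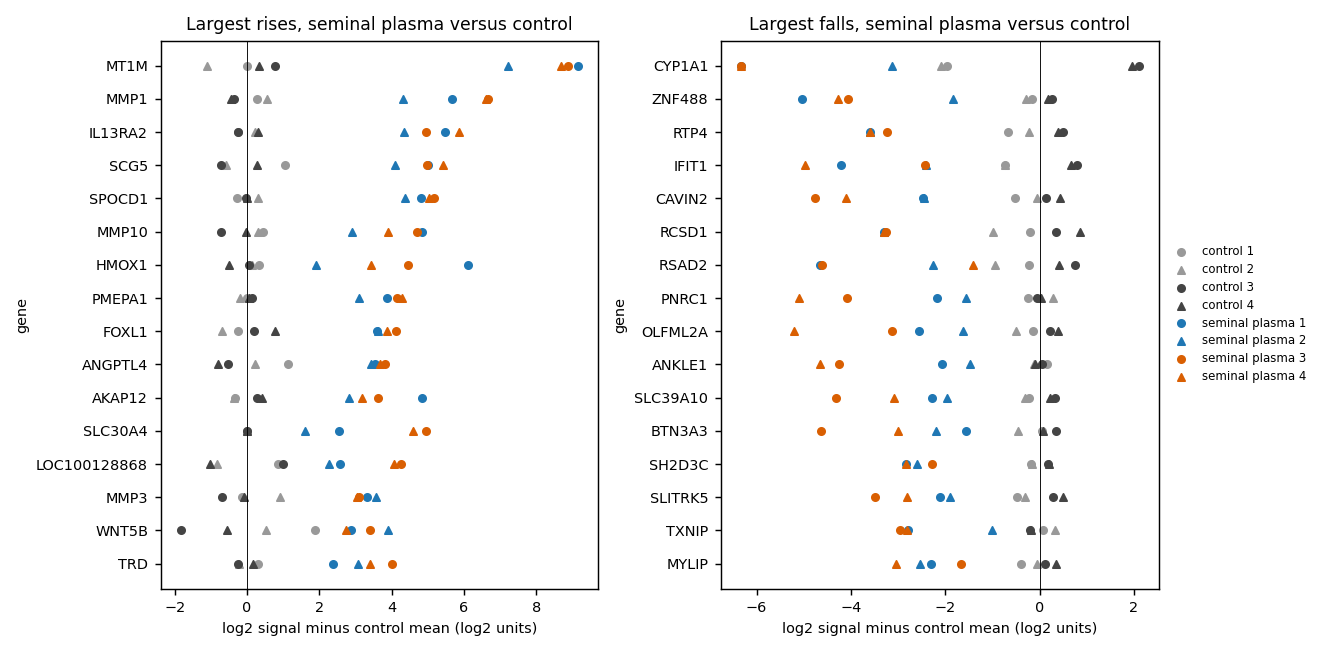
Log2 signal of each array minus the control mean (log2 units, x axis) for the 16 largest rises and the 16 largest falls among the called genes, 1 point per array (controls in grey, seminal plasma 1 and 2 in blue, 3 and 4 in orange). MT1M stands 8.49 log2 units above the controls on average, and the blue and orange points lie on the same side of the controls for every gene, which the rule that chose these genes requires.

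The metal response held the largest rise of the whole comparison. MT1M, a metallothionein of chromosome 16, read 34.5, 7.29, 58.7 and 42.7 in controls 1 to 4 and 19784, 5149, 16256 and 14028 in seminal plasma 1 to 4. Every control was dim and every treated array bright, with replicate 2 the lowest of the treated. MT1M rose by 8.49 ± 0.56 log2 units (± SE, here and below from 1 spread estimated over the 12 arrays, n = 4 per group; limma adjusted p = 0.000149), and the authors' deposited table gives a fold of 385.61. Taken within pairs, the difference was 8.75 between seminal plasma and control replicates 1 and 2 and 8.24 between replicates 3 and 4. Here and below such pairs go by replicate number, and the arrays are not known to be matched.

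Zinc traffic differed in both directions. SLC30A1, the zinc exporter of the plasma membrane, read 921, 1002, 908 and 881 in the controls and 9530, 5279, 2285 and 3472 with seminal plasma. Its 4 treated arrays lay above all controls, and replicates 1 and 2 lay above 3 and 4. The log2 fold change of SLC30A1 was 2.27 ± 0.38 (adjusted p = 0.0188), and 2.94 without replicates 3 and 4 (adjusted p = 0.00606), and it did not pass after median centring (adjusted p = 0.0678). For SLC30A4, which moves zinc into vesicles, all 4 controls were under the floor of 16 and the treated arrays read 92.6, 48.3, 499 and 386. Against that floor the SLC30A4 rise was at least 3.42 log2 units (adjusted p = 0.0274), and here replicates 3 and 4 were the higher pair. For SLC30A4 1 of 2 probe sets was called. SLC39A10, an importer of zinc, read 1245, 1172, 1823 and 1713 in the controls and 299, 374, 73.6 and 172 with seminal plasma, and it fell by 2.91 ± 0.46 (adjusted p = 0.0149), also passing without replicates 3 and 4.

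Of 23 measured metallothionein and zinc transporter genes, 9 rose, 1 fell and 13 did not pass, beside 1.84% and 1.36% of all genes. The list median was a log2 fold change of 0.96, against 0.11 over all genes, and on seminal plasma 1 to 4 it was 0.69, 0.60, 1.30 and 0.99 above the control mean. The other members that rose were MT1E, MT1F, MT1G, MT1H, MT1X and MT2A, which bind zinc and copper. MT2A, already bright, read 32736, 41229, 33860 and 30554 in the controls and 77064, 59217, 151732 and 103168 with seminal plasma. That is a log2 fold change of 1.42 ± 0.27 (adjusted p = 0.0281), and 0.97 without replicates 3 and 4 (adjusted p = 0.0745), and it did not pass after median centring or quantile normalization (adjusted p = 0.0549 and 0.0722). The metallothionein genes are near-identical copies whose probes can read each other, so the share of each gene is uncertain. Without replicates 3 and 4, 5 rose and 1 fell, and after median centring 6 rose and 1 fell.

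Upstream windows are shown for MT2A, MT1X and SLC30A1 because all 3 rose and their windows hold the core of the metal response element, the site of MTF1. Each window runs from 250 bases before to 50 after the start of the gene on its own strand (RefSeq, GRCh38.p14). The core was searched as TGCACNC or TGCGCNC on both strands, and capitals mark its matches, in which overlapping matches merge. The MT2A window is chr16:56608334-56608633 on the + strand with 8 matches, MT1X chr16:56682220-56682519 on the + strand with 4, and SLC30A1 chr1:211579112-211579411 on the - strand with 2.
MT2A: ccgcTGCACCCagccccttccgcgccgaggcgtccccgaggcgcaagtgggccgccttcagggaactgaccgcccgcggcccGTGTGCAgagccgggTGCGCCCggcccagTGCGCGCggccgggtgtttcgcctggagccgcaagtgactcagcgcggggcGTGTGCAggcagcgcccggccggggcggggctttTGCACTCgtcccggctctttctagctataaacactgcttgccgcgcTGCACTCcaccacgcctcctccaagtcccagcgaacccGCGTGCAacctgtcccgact
MT1X: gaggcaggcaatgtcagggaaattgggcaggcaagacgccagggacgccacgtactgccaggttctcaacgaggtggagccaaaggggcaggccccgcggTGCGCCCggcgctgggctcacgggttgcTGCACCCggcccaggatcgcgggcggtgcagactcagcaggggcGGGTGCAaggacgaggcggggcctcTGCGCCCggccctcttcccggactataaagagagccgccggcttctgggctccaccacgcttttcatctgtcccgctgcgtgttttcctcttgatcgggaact
SLC30A1: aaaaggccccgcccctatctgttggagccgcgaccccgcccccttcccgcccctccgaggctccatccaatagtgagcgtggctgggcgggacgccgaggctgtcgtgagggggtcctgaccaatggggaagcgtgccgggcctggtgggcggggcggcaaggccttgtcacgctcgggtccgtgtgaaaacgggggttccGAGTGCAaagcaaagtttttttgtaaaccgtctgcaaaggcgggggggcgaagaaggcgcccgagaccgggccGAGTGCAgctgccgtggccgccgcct
The core was present in 29.5% of 34943 RefSeq windows of this length, and 3 or more matches in 2.3%. Among the 9 members that rose, 5 had a window in the table and all 5 held it, while 6 of the 11 windows of the other 14 members did. A match is a run of letters in these windows, not a measured site.

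A few secreted matrix proteases rose. MMP1, the collagenase that cleaves fibrillar collagen, read 348, 430, 224 and 212 in the controls and 14910, 5802, 29408 and 28253 with seminal plasma. No treated array came near a control, and replicates 3 and 4 were the brighter pair. MMP1 had a log2 fold change of 5.82 ± 0.56 (adjusted p = 0.00127), and 5.00 without replicates 3 and 4 (adjusted p = 0.0134). MMP10, stromelysin 2, read 258, 231, 115 and 187 against 5429, 1400, 4883 and 2827, and MMP3, stromelysin 1, read 53.2, 110, 36.2 and 54.5 against 584, 694, 498 and 480. Both genes lie beside MMP1 on chromosome 11, and both passed in all 12 fits that left out 1 array. MMP9, a gelatinase, rose by 2.96 ± 0.57 with all arrays (adjusted p = 0.0286) and did not pass without replicates 3 and 4 (adjusted p = 0.146).

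Among the 22 measured matrix metalloproteinases and inhibitors there were 5 rises, no fall and 17 members that did not pass, with a list median of 0.38 (0.00 after median centring). The fifth rise was the inhibitor TIMP1. Of the 17, 2 had all treated arrays below all controls, which held for 7.56% of all genes. Within the plasminogen system 1 of 10 members rose, SERPINE2, an inhibitor of thrombin and plasminogen activators, which read 2660, 4321, 2320 and 2150 in the controls and 8775, 8375, 17677 and 18877 with seminal plasma. Its treated arrays all exceeded the highest control, with a log2 fold change of 2.19 ± 0.33 (adjusted p = 0.0133), and without replicates 3 and 4 it did not pass (adjusted p = 0.0503). PLAU, the urokinase plasminogen activator, showed the reverse order of the pairs (chosen after its values were seen), with 14396, 9784, 5168 and 5010 on seminal plasma 1 to 4 against 1960, 2342, 3749 and 3751 in the controls. It passed without replicates 3 and 4 (log2 fold change 2.07; adjusted p = 0.0367) and not with all arrays (adjusted p = 0.0573).

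The activin and TGF-beta branch contributed both a ligand and its inhibitor. FST, which encodes follistatin, the secreted protein that binds and blocks activin, read 2044, 1779, 3055 and 2943 in the controls and 22720, 15917, 19612 and 24532 with seminal plasma. The groups were far apart and the 4 treated arrays lay close together. FST rose by 3.09 ± 0.25 log2 units (adjusted p = 0.000348), all 3 of its probe sets were called, and the within-pair differences were 3.32 and 2.87. INHBA, the subunit of activin A, read 1204, 964, 577 and 620 against 7907, 3460, 7672 and 9692. Its rise was 3.06 ± 0.41 (adjusted p = 0.00897), and without replicates 3 and 4 it did not pass (adjusted p = 0.0609).

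PMEPA1, a membrane protein induced by TGF-beta that restrains SMAD signalling, read 834, 727, 910 and 866 against 12209, 7157, 14829 and 16405, and all 3 of its probe sets were called. ITGB6, the integrin chain that frees latent TGF-beta, read 3639, 4170, 4668 and 4227 against 14289, 16032, 6610 and 9257. All treated arrays lay above the controls, and replicates 1 and 2 were the higher pair. The log2 fold change of ITGB6 was 1.39 ± 0.27 with all arrays (adjusted p = 0.0285) and 1.86 without replicates 3 and 4 (adjusted p = 0.00438), and it did not pass after median centring (adjusted p = 0.168). For ITGB6 1 of 4 probe sets was called. Of 34 measured TGF-beta pathway genes and targets these 4 rose and 30 did not pass, and 3 rose without replicates 3 and 4. The list median was 0.30, and it was -0.08 after median centring.

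Genes of attachment to the basement membrane differed in both directions. ITGA2, the collagen-binding integrin chain, read 2127, 1894, 2435 and 2287 in the controls and 14317, 8347, 5593 and 12282 with seminal plasma. It rose by 2.13 ± 0.27 (adjusted p = 0.00661) and by 2.33 without replicates 3 and 4 (adjusted p = 0.0055). Of 19 integrin genes, ITGA2, ITGB6 and ITGA5 rose, none fell and 16 did not pass. Among 16 hemidesmosome and basal layer genes, 2 rose, with LAMB3, a chain of laminin-332, among them, and DST, whose plakin ties keratin filaments to hemidesmosomes, fell. LAMB3 read 7904, 7469, 5398 and 5859 against 25172, 22029, 19368 and 12816, and rose by 1.55 ± 0.26 (adjusted p = 0.0194). Every treated array lay above every control, but LAMB3 did not pass after median centring (adjusted p = 0.09) or quantile normalization (adjusted p = 0.0521). For DST the signals were 10261, 10999, 11603 and 10208 against 5126, 5148, 1788 and 3611. DST fell by 1.57 ± 0.30 (adjusted p = 0.0284), passing without replicates 3 and 4 as well, with 2 of 10 probe sets called. Of 24 keratins KRT18 alone rose (0.86 ± 0.18; adjusted p = 0.0392), and it did not pass after median centring, after quantile normalization or without replicates 3 and 4. None of 31 matrix and matricellular genes and none of 32 junction genes passed, where COL4A1 (adjusted p = 0.0639), SPARC (0.0676) and PKP1 (0.083) were among those with the smallest p. In the cytoskeleton 2 of 23 members rose, ACTN1, an actin cross-linker, and TAGLN, an actin-binding protein that also stands in the list of 15 epithelial-mesenchymal transition factors, where SNAI2 was the other of 2 that rose. Of these 3 genes none passed without replicates 3 and 4 (adjusted p = 0.149, 0.091 and 0.127).

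**Figure D2:**
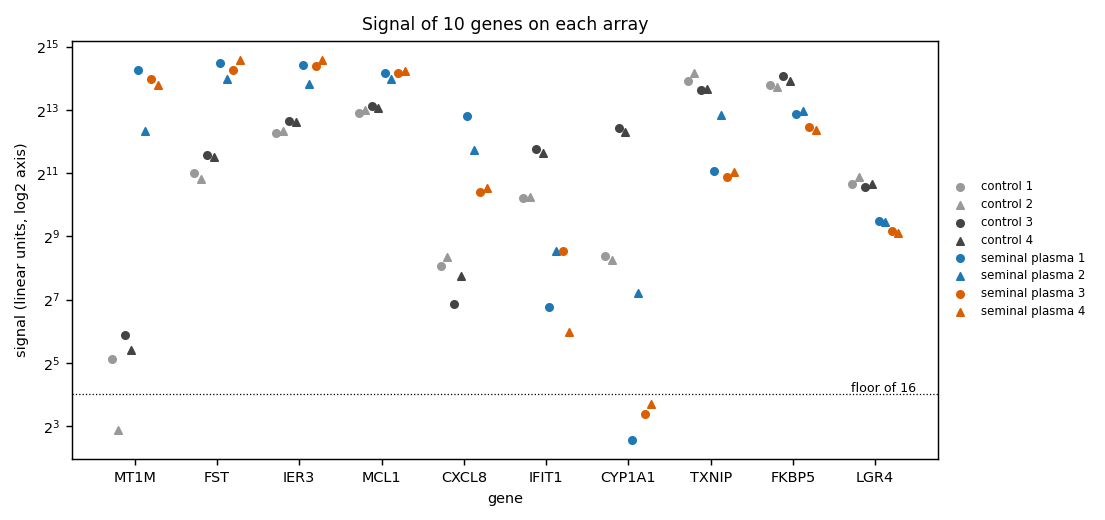
Signal of 10 genes on each control and seminal plasma array (linear units on a log2 axis), 1 point per array, with the floor of 16 dotted. MT1M, FST, IER3 and MCL1 are higher on all 4 seminal plasma arrays (called) and IFIT1, CYP1A1, TXNIP, FKBP5 and LGR4 are lower (called), while CXCL8 is higher on all 4 and did not pass.

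Chemokine and cytokine genes of epithelium were higher on many treated arrays, and few passed. CXCL8, the neutrophil chemoattractant interleukin 8, read 268, 323, 117 and 215 in the controls and 7091, 3418, 1350 and 1464 with seminal plasma. All treated arrays exceeded all controls, with replicates 1 and 2 above 3 and 4, and the log2 fold change of 3.61 ± 1.09 had an adjusted p of 0.0847. CCL20, which attracts dendritic cells and lymphocytes, read 476, 600, 512 and 431 against 3915, 3045, 915 and 1501 and did not pass either (adjusted p = 0.0883). CXCL3, a ligand of the same receptor as CXCL8, read 103, 149, 154 and 285 against 2027, 1506, 624 and 776 and rose by 2.77 ± 0.53 (adjusted p = 0.0284). Of 19 chemokines, CXCL3 and CXCL2 rose and 17 did not pass, beside 1.84% of all genes, and none passed without replicates 3 and 4. In that fit the log2 fold changes were larger, at 3.44 for CXCL3 (adjusted p = 0.0503) and 3.08 for CXCL2 (0.0537). With all arrays CXCL2 rose by 2.35 ± 0.53 (adjusted p = 0.0441) with 1 of 3 probe sets called. Without replicates 1 and 2 CXCL2 did not pass either (adjusted p = 0.0583). The list median was 0.57, and 5 members had all treated arrays above all controls, which held for 8.30% of all genes.

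Among 18 cytokines and growth factors for leukocytes, IL6 and IL11 rose and 16 did not pass. IL11 had an adjusted p of 0.0486, with 2 controls under the floor and 1 of 2 probe sets called. Its signal on seminal plasma 2 (40.8) lay under control 1 (41.8), and it passed in 1 of the 12 fits that left out 1 array. IL11 did not pass after quantile normalization, after median centring or without replicates 3 and 4 (adjusted p = 0.0543, 0.0533 and 0.274). IL6 read 207, 255, 217 and 194 in the controls and 1140, 763, 840 and 712 with seminal plasma. The pairs were alike here, with within-pair differences of 2.02 and 1.92, and IL6 rose by 1.97 ± 0.42 (adjusted p = 0.0379), but not without replicates 3 and 4 (adjusted p = 0.137). CSF2, the gene of GM-CSF, read 121, 34.1, 38.7 and 70.0 against 109, 35.6, 259 and 141, with groups that overlap. IL1A read 912, 1098, 1649 and 1618 in the controls, 4219 and 3940 in seminal plasma 1 and 2, and 796 and 1688 in seminal plasma 3 and 4, so replicates 1 and 2 lay above all controls, replicate 3 below all of them and replicate 4 just above the highest. Neither it nor IL1B passed (adjusted p = 0.384 and 0.213).

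Few cytokine receptor genes passed, and IL13RA2 had the largest rise among them. IL13RA2, the decoy receptor of interleukin 13, read 12.2, 22.3, 11 and 23.7 in the controls and 855, 391, 595 and 1120 with seminal plasma. With 2 controls under the floor, its log2 fold change of 5.16 ± 0.50 (adjusted p = 0.00127) is understated. IL1RL1, the receptor of interleukin 33, read 203, 259, 179 and 206 against 1191, 509, 716 and 583 and rose by 1.76 ± 0.26 (adjusted p = 0.0125), with 2 of its 4 probe sets called. IL20RB, a chain of the interleukin 20 receptor, read 7822, 6482, 7140 and 7576 against 4471, 2879, 4325 and 3071. It fell by 1.0 ± 0.18 log2 units (adjusted p = 0.0228), with near-equal within-pair differences of -0.99 and -1.01. These 3 genes passed without replicates 3 and 4 too, and IL1RL1 did not pass after median centring (adjusted p = 0.0534). Of 23 cytokine receptors IL13RA2 rose, IL20RB fell and 21 did not pass, and of 15 interleukin 1 family genes and receptors IL1RL1 rose and 14 did not pass. PTGS2, the inducible cyclooxygenase of prostaglandin synthesis, read 321, 454, 264 and 325 against 4721, 1919, 1838 and 3982, and was the 1 gene that rose among 18 of that pathway.

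Transcription factors and feedback genes of growth factor signalling followed. KLF6, a zinc finger factor of epithelial injury, read 2697, 3360, 2487 and 2286 in the controls and 12107, 9117, 22073 and 21479 with seminal plasma. Its treated arrays lay well above the controls, replicates 3 and 4 highest, and it rose by 2.50 ± 0.33 (adjusted p = 0.00757) with 3 of 5 probe sets called. FOSL1 and FOSL2, partners of JUN in AP-1, moved in opposite directions. FOSL1 read 1085, 989, 2097 and 2015 against 9248, 5908, 5062 and 4943 and rose by 2.06 ± 0.35 (adjusted p = 0.021). FOSL2 read 2141, 2514, 2305 and 1984 against 806, 852, 296 and 356 and fell by 2.10 ± 0.40 (adjusted p = 0.028), with 2 of 5 probe sets called. In the list of 24 AP-1 and immediate early factors FOSL1, KLF6 and the small MAF protein MAFF rose, FOSL2 fell and 20 did not pass. Without replicates 3 and 4 only KLF6 passed (adjusted p = 0.0346).

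IER3, an early gene induced by growth factors and stress, read 4878, 5179, 6385 and 6214 against 21909, 14531, 21243 and 24409. The within-pair differences were 1.83 and 1.85, and IER3 rose by 1.84 ± 0.20 (adjusted p = 0.00273), the 1 call among 21 MAPK feedback genes. HBEGF, a ligand of the EGF receptor, read 284, 275, 556 and 594 against 3143, 2585, 1511 and 1756 and was the 1 call among 14 genes of that family (2.43 ± 0.48; adjusted p = 0.0313). Of 20 NF-kappaB subunits and feedback genes, TNFAIP3, TRAF1 and NFKBIA rose and 17 did not pass. TNFAIP3, a ubiquitin-editing inhibitor of NF-kappaB, read 1479, 1737, 1533 and 1680 against 8174, 4377, 12185 and 12896. Neither HBEGF nor any of these 3 passed without replicates 3 and 4.

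Regulators of survival and division gave a small set of calls. MCL1, an anti-apoptotic member of the BCL2 family, read 7640, 8121, 8951 and 8450 in the controls and 18314, 16056, 18540 and 19231 with seminal plasma. Treated arrays were tightly grouped above the controls, and the within-pair differences were both 1.12. MCL1 rose by 1.12 ± 0.13 (adjusted p = 0.00318), and by 1.05 without replicates 3 and 4 (adjusted p = 0.0053), but did not pass after median centring. For MCL1 2 of 5 probe sets were called. BAK1, which opens the mitochondrial outer membrane, rose from 689 to 898 in the controls to 1383 to 1831 (1.03 ± 0.23; adjusted p = 0.0424), but not without replicates 3 and 4 or after median centring (adjusted p = 0.161 and 0.243). Of 27 apoptosis regulators 24 did not pass.

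DDB2, a DNA damage sensor, PPM1D, a phosphatase of the DNA damage response, and SESN1, a sestrin of the stress response, fell (log2 fold changes -1.27 ± 0.29, -1.07 ± 0.22 and -1.34 ± 0.30). None of these 3 passed without replicates 3 and 4.

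CDK6, the kinase that opens G1, read 1962, 2192, 1847 and 2054 in the controls and 6235, 4004, 7568 and 8568 with seminal plasma. Its rise was 1.66 ± 0.24 (adjusted p = 0.0118), with 2 of 7 probe sets called. CDKN2C, an inhibitor of CDK4 and CDK6, fell by 1.12 ± 0.25 (adjusted p = 0.0429), and the other 16 of 18 G1 regulators did not pass. Of 26 mitosis genes KIF20A fell and 25 did not pass, and of 30 replication genes PRIM1, a primase subunit, fell and 29 did not pass, beside 1.36% of all genes that fell. In the mitosis list the medians on seminal plasma 1 to 4 were 0.07, -0.52, -0.75 and -0.73, against -0.31 to 0.28 on the controls, so that replicate 1 lay within the controls. CDKN2C, KIF20A and PRIM1 did not pass without replicates 3 and 4 (adjusted p = 0.165, 0.202 and 0.106), while CDK6 did (0.0442).

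Wnt signalling genes differed in direction. LGR4, a receptor for R-spondins that strengthens Wnt signals, read 1605, 1880, 1501 and 1611 in the controls and 714, 703, 581 and 550 with seminal plasma. The treated values were close together and all below the controls. LGR4 fell by 1.38 ± 0.15 (adjusted p = 0.00212), and by 1.21 without replicates 3 and 4 (adjusted p = 0.00499), with 1 of 3 probe sets called. WNT5B, a ligand, read 211, 82.3, 14.2 and 38.7 against 417, 853, 608 and 382, where the controls spread over an order of magnitude, and rose by 3.23 ± 0.64 (adjusted p = 0.0308). For WNT5B 1 of 3 probe sets was called. TCF7, a Wnt effector, rose by 1.48 ± 0.35 (adjusted p = 0.0494). Neither WNT5B nor TCF7 passed without replicates 3 and 4 (adjusted p = 0.128 and 0.233), and TCF7 did not pass after quantile normalization or median centring (0.0534 and 0.0756). The remaining 29 of 32 members did not pass.

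Further large rises lay outside the lists. SPOCD1, known in the mouse for silencing transposons in germ cells, read 18.1, 27.0, 21.6 and 22.2 in the controls and 622, 451, 795 and 725 with seminal plasma. Both of its probe sets were called, and the rise of 4.85 ± 0.22 had the smallest adjusted p among the named genes (1.32e-05). SCG5, a chaperone of prohormone convertase, read 55.3, 17.7, 13.4 and 31.9 against 860, 454, 831 and 1138. FOXL1, a forkhead factor, read 37.5, 27.4, 50.5 and 76.7 against 539, 544, 778 and 653, a rise of 3.8 ± 0.29 (adjusted p = 0.000266) with 1 of 2 probe sets called. AKAP12, a scaffold for protein kinase A, read 401, 393, 610 and 677 against 14521, 3535, 6199 and 4549, with replicate 1 highest. SPOCD1, SCG5 and FOXL1 passed without replicates 3 and 4, and AKAP12 did not (adjusted p = 0.0811). HMOX1, which breaks down haem, ranged widely within the treated group, at 12605, 675, 3981 and 1961 against 127 to 226 in the controls, and was the 1 call among 23 NRF2 stress genes, but not without replicates 3 and 4 (adjusted p = 0.1). The T cell receptor delta locus TRD and LOC100128868 completed the 16 largest rises together with ANGPTL4.

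The interferon response was the largest group of falls. RTP4, an interferon-induced transporter protein of receptors, read 123, 165, 273 and 254 in the controls and 7.86, 15.4, 20.6 and 5.85 with seminal plasma. With 3 treated arrays under the floor it fell by 3.51 ± 0.27 (adjusted p = 0.000266), which is understated, and it was the 1 interferon-stimulated gene that passed without replicates 3 and 4 (adjusted p = 0.00523). IFIT1, which binds foreign RNA, read 1193, 1203, 3453 and 3166 in the controls and 109, 375, 371 and 63.1 with seminal plasma. Controls 3 and 4 stood above controls 1 and 2, and all treated arrays were lower than both. The within-pair differences of IFIT1 were -2.57 and -4.43, and with all arrays it fell by 3.5 ± 0.66 (adjusted p = 0.0271). RSAD2, the antiviral viperin, read 347, 209, 680 and 535 against 14.1, 83.6, 16.4 and 151.

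The list of 39 measured interferon-stimulated genes had 13 falls, no rise and 26 members that did not pass, beside 1.36% of all genes that fell. The list median was -0.81, and it was -0.82 after quantile normalization and -1.20 after median centring. Without replicates 3 and 4 the median was -0.70 with 1 call. Per array the median stood at -1.28, -0.31, -0.78 and -1.0 on seminal plasma 1 to 4, and -0.14 to 0.10 on the controls. Besides the 3 above, USP18, which removes ISG15 from proteins, OASL, OAS1, OAS2, IFIT3, DDX60, CMPK2, PARP14, TRIM22 and the RNA-sensing kinase EIF2AK2 fell. ISG15 itself (log2 fold change -0.10), BST2 (-0.09) and IFI6 (-0.04), named after their values were seen, did not pass. Among 24 sensors and interferon factors IFIH1 and TLR3, both of which sense viral RNA, fell and 22 did not pass. IFIH1 read 763, 763, 822 and 920 against 277, 454, 362 and 388, fell by 1.16 ± 0.17 (adjusted p = 0.0125), and passed without replicates 3 and 4 (adjusted p = 0.0394). For IFIH1 1 of 3 probe sets was called. None of 21 antigen presentation genes passed, where PSMB8, an immunoproteasome subunit, had an adjusted p of 0.0623 and CD274 one of 0.0652.

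Windows of IFIT1 and RTP4 are shown because both fell and both hold the core of the interferon response element, which is GAAA, any 2 bases and GAAA again, searched on both strands and set in capitals. IFIT1 is chr10:89392373-89392672 on the + strand and RTP4 chr3:187368135-187368434 on the + strand, each with 2 matches (RefSeq, GRCh38.p14, 250 bases before to 50 after the start).
IFIT1: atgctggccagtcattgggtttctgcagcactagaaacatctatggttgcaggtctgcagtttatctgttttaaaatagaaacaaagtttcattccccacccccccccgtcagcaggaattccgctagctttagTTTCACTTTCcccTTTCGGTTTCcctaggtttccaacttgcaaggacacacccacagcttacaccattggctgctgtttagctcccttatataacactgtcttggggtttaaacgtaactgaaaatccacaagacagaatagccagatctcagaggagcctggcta
RTP4: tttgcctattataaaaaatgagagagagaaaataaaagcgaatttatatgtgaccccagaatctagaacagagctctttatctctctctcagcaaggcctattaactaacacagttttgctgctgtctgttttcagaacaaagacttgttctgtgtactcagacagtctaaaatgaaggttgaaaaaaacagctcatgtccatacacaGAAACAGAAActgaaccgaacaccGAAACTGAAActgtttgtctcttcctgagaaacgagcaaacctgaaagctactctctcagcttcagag
The core was present in 3.57% of 34943 windows. It was in 7 of the 9 windows found for the 13 genes that fell and in 17 of the 23 found for the other 26 members, so the letters were common in members that did not pass too.

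Genes of cholesterol synthesis and uptake gave falls and no rise. MYLIP, a ubiquitin ligase of sterol homeostasis, read 517, 652, 733 and 861 in the controls and 137, 116, 215 and 82.1 with seminal plasma. It fell by 2.39 ± 0.37 (adjusted p = 0.0135) with 4 of 6 probe sets called. The sterol transporter STARD4 and the sterol-sensing transcription factor SREBF2 fell too. SREBF2 did not pass without replicates 3 and 4 (adjusted p = 0.224), after quantile normalization (0.0534) or after median centring (0.0522), and it passed in 1 of the 12 fits that left out 1 array. Of 27 cholesterol synthesis and uptake genes 4 fell, these 3 among them, none rose and 23 did not pass, while 13 had all treated arrays below all controls, which held for 7.56% of all genes.

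ABCA1, the exporter of cholesterol, read 157, 235, 78.5 and 98.3 in the controls and 373, 433, 927 and 1275 with seminal plasma and rose, while LPCAT3, which remodels phospholipids, read 530, 428, 540 and 464 against 101, 258, 59.9 and 51.9 and fell. Both lie among 11 efflux and liver X receptor genes, of which 9 did not pass, and neither passed without replicates 3 and 4. ANGPTL4, an inhibitor of lipoprotein lipase, read 606, 320, 189 and 157 against 3175, 2955, 3905 and 3497 and was the 1 call among 21 fatty acid and PPAR genes (3.61 ± 0.60; adjusted p = 0.0188), again not without replicates 3 and 4 (adjusted p = 0.107).

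Targets of nuclear receptors and clock genes gave few calls, most of them falls. FKBP5, a co-chaperone of the glucocorticoid receptor that the receptor induces, read 14129, 13595, 17037 and 15383 in the controls and 7432, 8052, 5669 and 5273 with seminal plasma. All 3 FKBP5 probe sets were called, and it fell by 1.20 ± 0.18 (adjusted p = 0.0121). Of 13 glucocorticoid receptor targets FKBP5, TSC22D3 and PER1 fell, MT2A rose and 9 did not pass, and without replicates 3 and 4 FKBP5 alone passed (adjusted p = 0.0244). DBP, a clock output factor, read 339, 243, 230 and 371 against 64.4, 91.5, 26.0 and 75.8 and fell by 2.31 ± 0.35 (adjusted p = 0.0133), and by 1.92 without replicates 3 and 4 (adjusted p = 0.0137). It and PER1 were the 2 calls among 16 clock genes. CYP1A1, the monooxygenase induced through the aryl hydrocarbon receptor, read 330 and 304 in controls 1 and 2, 5503 and 4985 in controls 3 and 4, and 5.96, 147, 10.5 and 13.1 with seminal plasma. Here the controls formed 2 levels, the within-pair differences were -2.71 and -8.35, and CYP1A1 fell by 5.53 ± 1.24 with all arrays (adjusted p = 0.0443) but did not pass without replicates 3 and 4 (adjusted p = 0.241). UGT1A6, a glucuronosyltransferase, was the other call among 10 targets of that receptor, and it fell by 1.13 ± 0.21, with a difference of -1.13 within each pair.

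Few growth and nutrient genes passed, beside 3.20% of all genes. IGFBP3, which sequesters insulin-like growth factors, read 1947, 1223, 291 and 645 in the controls and 7600, 6292, 5503 and 5612 with seminal plasma and rose by 2.92 ± 0.54 (adjusted p = 0.0264). IGF1R, their receptor, read 2192, 2431, 2123 and 2242 against 4152, 3688, 7971 and 7758. It rose by 1.31 ± 0.27 (adjusted p = 0.0365) with 3 of 5 probe sets called, and the other 14 of 16 members of that system did not pass. Neither gene passed without replicates 3 and 4 (adjusted p = 0.11 for IGFBP3 and 0.0956 for IGF1R). SLC7A5, a leucine transporter, fell by 1.71 ± 0.37 (adjusted p = 0.0413) as the 1 call among 26 stress and amino acid genes, and did not pass without replicates 3 and 4 (adjusted p = 0.163). TXNIP, an arrestin that lowers glucose uptake and binds thioredoxin, read 15352, 18342, 12675 and 12825 against 2119, 7272, 1889 and 2077. Replicate 2 was the highest of the treated and still under every control, all 3 probe sets of TXNIP were called, and it fell by 2.39 ± 0.38 (adjusted p = 0.0163), but not without replicates 3 and 4 (adjusted p = 0.0924). GAPDH, often used as a reference gene, read 30411, 42147, 30528 and 26988 against 56546, 48198, 98344 and 76084. It rose by 1.07 ± 0.25 with all arrays (adjusted p = 0.0494), the 1 call among 28 hypoxia and glycolysis genes, but not after median centring, after quantile normalization or without replicates 3 and 4 (adjusted p = 0.129, 0.279 and 0.195).

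Other large falls were those of ZNF488, a zinc finger factor, CAVIN2, a coat protein of caveolae, RCSD1, which binds actin capping protein, PNRC1, a nuclear receptor coregulator, OLFML2A, ANKLE1, BTN3A3, a butyrophilin that gamma-delta T cells recognise, SH2D3C and SLITRK5. CAVIN2 read 446, 615, 700 and 868 in the controls and 115, 116, 23.4 and 37.0 with seminal plasma, and both of its probe sets were called. PNRC1 read 5822, 8354, 6639 and 6990 against 1534, 2331, 408 and 202. In both genes replicates 3 and 4 were the lower pair, and the within-pair differences were -2.18 and -4.73 for CAVIN2 and -1.88 and -4.57 for PNRC1. CAVIN2, RCSD1, PNRC1, ANKLE1 and BTN3A3 passed without replicates 3 and 4, while ZNF488 (adjusted p = 0.091), OLFML2A (0.0643), SH2D3C (0.0618) and SLITRK5 (0.0555) did not.

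Some further lists held 1 call each, beside 1.84% of all genes that rose and 1.36% that fell. Such single calls are no result about these lists. DNAJB4, a co-chaperone of the HSP40 family, read 1811, 1888, 1529 and 1656 in the controls and 999, 842, 994 and 725 with seminal plasma and fell by 0.96 ± 0.16 (adjusted p = 0.0177), the 1 call among 18 heat shock genes. ALOX12B, a lipoxygenase of the skin barrier, fell among 34 cornified envelope genes, from 49.1 to 113 in the controls to 5.57 to 35.6 (adjusted p = 0.0292). Both passed without replicates 3 and 4 (adjusted p = 0.0326 and 0.0476). ATP13A3, a polyamine transporter, rose among 16 polyamine genes (adjusted p = 0.0393), and EFNB2, an ephrin ligand, among 24 angiogenic and axon guidance factors (0.0448). NEDD4, a ubiquitin ligase, fell among 24 ubiquitin ligase and cullin genes (adjusted p = 0.0447), and the lysozyme gene LYZ, which also stands among the leukocyte markers, among 19 antimicrobial genes (0.0382). None of these 4 passed without replicates 3 and 4 (adjusted p = 0.109, 0.0768, 0.162 and 0.124), and ATP13A3, EFNB2 and NEDD4 did not pass after median centring.

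**Figure D3:**
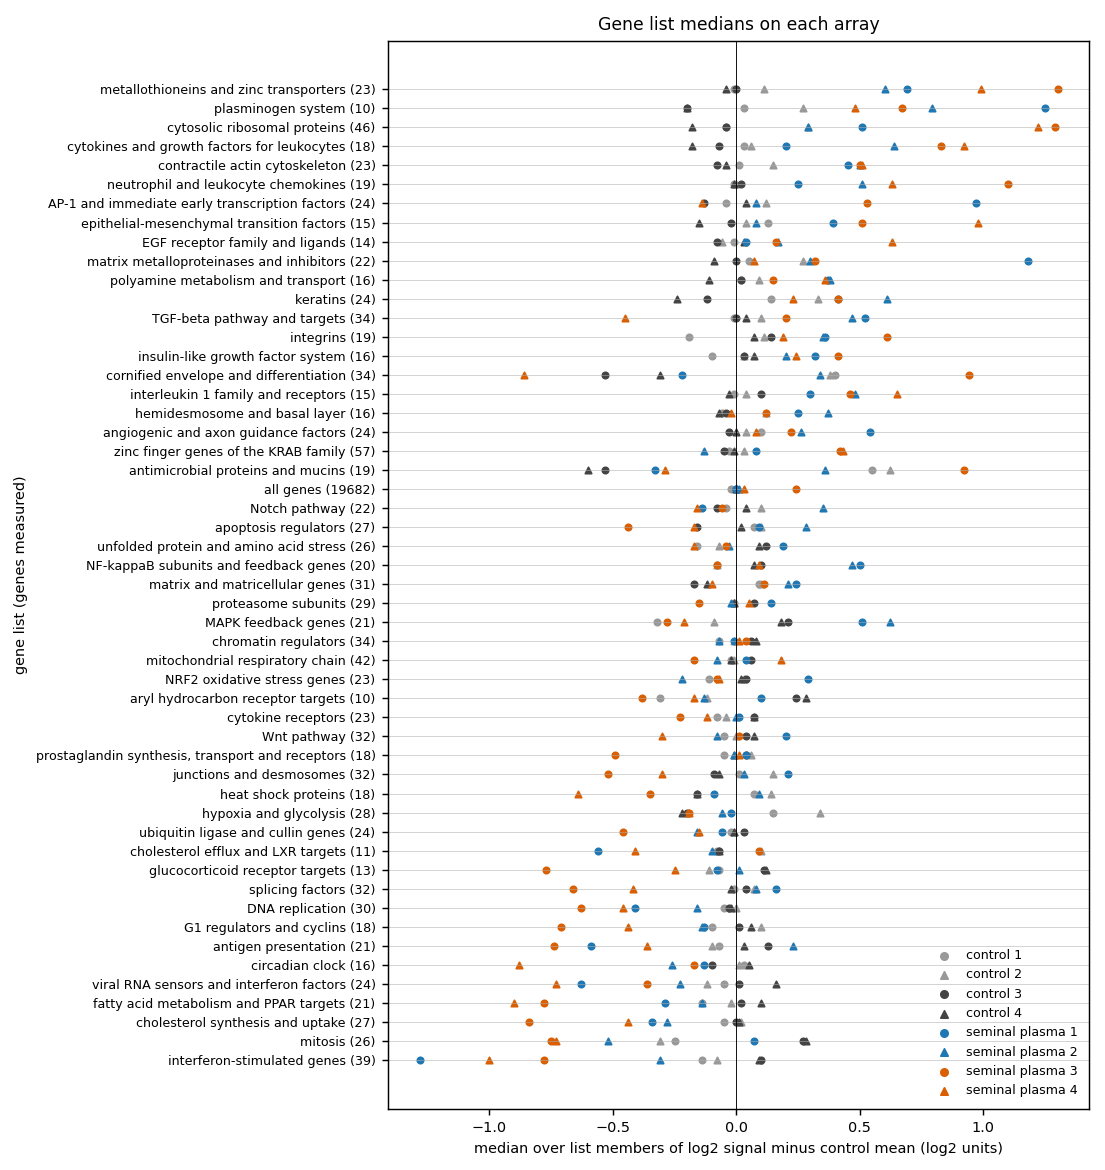
Median over the members of gene lists of log2 signal minus the control mean (log2 units, x axis) on each of the 8 arrays, with lists ordered by their log2 fold change and the genes measured in parentheses. Metallothioneins and zinc transporters have the highest list log2 fold change (0.96) and interferon-stimulated genes the lowest (-0.81), while on single arrays other lists lie beyond them, such as ribosomal proteins at 1.22 on seminal plasma 4.

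Ribosomal protein genes differed in level between the pairs of treated arrays. Of 46 cytosolic ribosomal protein genes none passed with all arrays, and RPS2 had the smallest adjusted p (0.0555). Their median above the control mean was 0.51 and 0.29 on seminal plasma 1 and 2 and 1.29 and 1.22 on 3 and 4. All treated arrays lay above all controls for 27 of the 46, and for 8.30% of all genes. The list median of 0.83 was 0.04 after quantile normalization. Without replicates 1 and 2, 45 of the 46 passed, beside 16.2% of all genes that rose there. PSMD2, a base subunit of the proteasome, was the 1 rise among 29 proteasome genes (0.98 ± 0.18; adjusted p = 0.0248). NDUFA5, of respiratory complex I, was the 1 fall among 42 respiratory chain genes (-0.83 ± 0.18; adjusted p = 0.0429), and U2AF2 the 1 fall among 32 splicing factors, beside 1.36% of all genes that fell. PSMD2, NDUFA5 and U2AF2 did not pass without replicates 3 and 4 (adjusted p = 0.0552, 0.0752 and 0.195) or after median centring (0.143, 0.0631 and 0.0681). On seminal plasma 1 to 4 the proteasome median was 0.14, -0.02, -0.15 and 0.05 and the respiratory chain median 0.04, -0.08, -0.17 and 0.18, without the order of the pairs seen in the ribosomal genes. No member passed among 34 chromatin regulators, 22 Notch genes or 57 KRAB zinc finger genes.

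Dim and bright genes shifted apart in replicates 3 and 4. Among 5604 genes with a mean control signal under 64 the median log2 difference from the control mean was 0.00 and 0.00 on seminal plasma 1 and 2, 1.12 on 3 and 0.51 on 4. For 4051 genes between 1024 and 4096 it was -0.07, -0.02, -0.46 and -0.31. Of the called genes, 101 rises and 2 falls had a control signal under 64, and 79 rises and 116 falls lay between 1024 and 4096. More than 1 log2 unit from the control mean lay 18.9%, 12.5%, 43.7% and 35.1% of all genes on seminal plasma 1 to 4, and 3.81% to 6.18% on the controls. These values move with the calls of dim genes that rose and of bright genes that fell, and their part in those results was not tested.

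**Figure D4:**
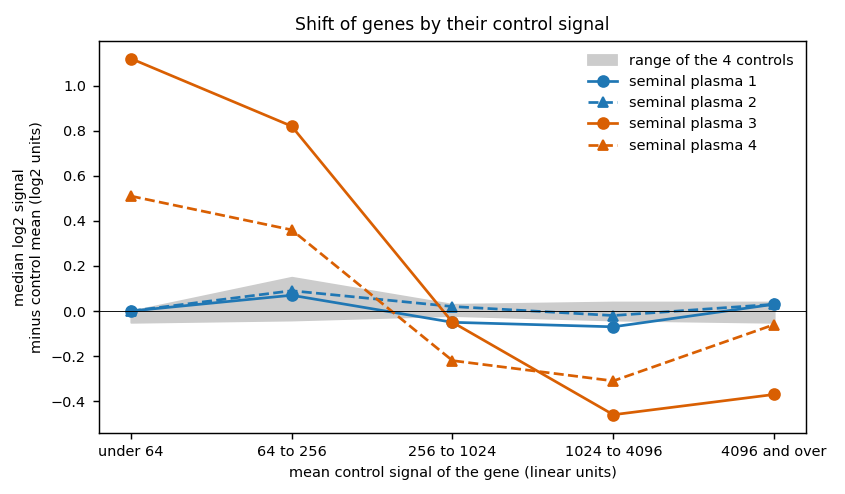
Median log2 signal minus control mean (log2 units) over genes binned by their mean control signal (linear units), for each seminal plasma array, with the range of the 4 controls in grey. Seminal plasma 1 and 2 stay within 0.09 of 0, while 3 and 4 lie at 1.12 and 0.51 for genes under 64 and at -0.46 and -0.31 for genes between 1024 and 4096.

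Some genes differed between the pairs of treated arrays. Counted were those of the 19682 genes with a signal of at least 200 on both arrays of the higher pair. Without overlap, 3018 genes were higher in replicates 3 and 4 than in 1 and 2, by a gap of at least 1 log2 unit for 458. In the other direction 4240 were lower, by such a gap for 527. Other splits of the 4 arrays into pairs can part genes without overlap too, and their counts were not made. The number of genes that met the signal rule was not counted either. These counts therefore show no excess over what another split would give. The 6 with the widest gap in each direction are a description chosen for that gap, and no test is given. LHB, the beta chain of luteinizing hormone, read 15.9 and 10.9 in seminal plasma 1 and 2, 336 and 333 in 3 and 4, and 8.78 to 75.9 in the controls. GP5, a platelet glycoprotein, read 13.5 and 6.55 against 258 and 213, with controls at 41.5 to 75.3 between the pairs. LOC643187, LOC100130078, LOC728678 and MGC12488 showed the same order. On the opposite side stood GRHL3, a transcription factor of epithelial barrier formation, with 247 and 437 in seminal plasma 1 and 2, 20.7 and 26.4 in 3 and 4, and 587 to 935 in the controls. CCDC88A, an actin regulator of cell migration, read 436 and 389 against 52.3 and 54.9, and its controls at 352 to 374 lay beside replicates 1 and 2. TSPAN7, LOC100130476, ITM2C and CCDC191 were likewise lower in 3 and 4. DUSP1, a phosphatase that ends MAPK signals (chosen after its values were seen), read 9093 and 4532 in replicates 1 and 2 and 1324 and 1258 in 3 and 4, on either side of its controls at 2300 to 3234.

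**Figure D5:**
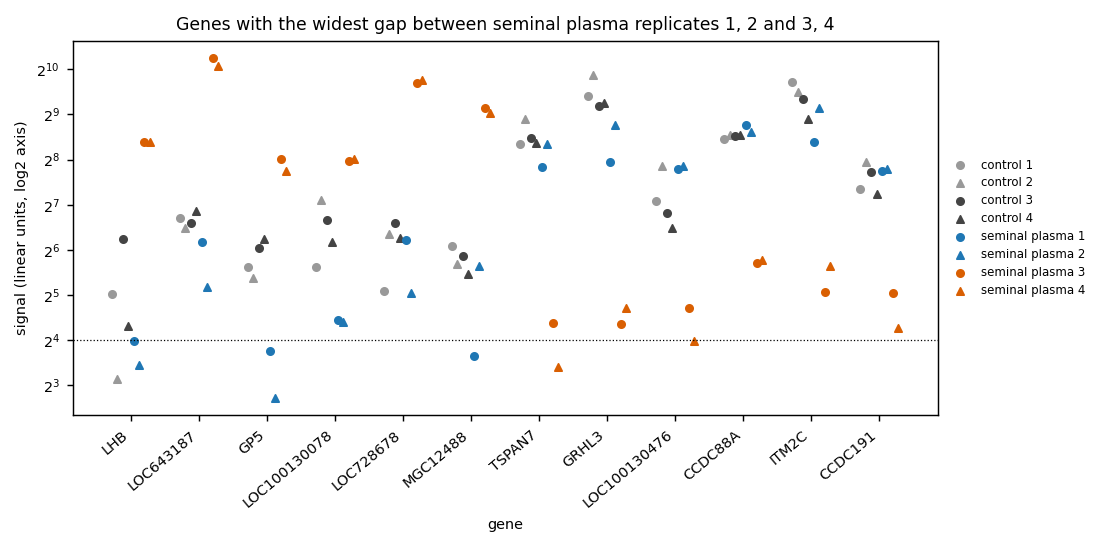
Signal (linear units on a log2 axis) of the 12 genes with the widest gap between seminal plasma replicates 1 and 2 (blue) and 3 and 4 (orange), with the controls in grey and the floor of 16 dotted. The first 6 genes are higher in 3 and 4, such as LHB at 336 and 333, and the last 6 lower, such as CCDC88A at 52.3 and 54.9.

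Genes that passed in each fit were set almost only by the fit without replicates 3 and 4. Of the 630 genes, 622 passed without replicates 1 and 2 and 142 without 3 and 4. The fits share the control and TGFB3 arrays, so they are not independent checks. With all arrays, without replicates 3 and 4, and without 1 and 2, 141 genes passed in all 3 fits, 89 higher and 52 lower in each. They include MT1M, SPOCD1, PMEPA1, FST, MCL1, ITGA2, CDK6, LGR4, DBP, FKBP5 and RTP4. Of the 630 called genes, 381 have several probe sets, and for 98 of these another probe set was called the same way and for 2 the other way. Among the named genes, only 1 of 3 probe sets was called for SREBF2, PER1, TSC22D3 and GAPDH. Only 1 of 2 was called for TNFAIP3, TRAF1, SERPINE2, IGFBP3, ANGPTL4, LPCAT3 and DBP. Of the 630 genes 416 were among the 1304 genes called in the authors' deposited table.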

How the data were processed

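The series measured 12 Affymetrix Human Genome U133 Plus 2.0 arrays, of which 8 are compared here. The deposited value table holds 1 linear intensity per probe set and array. GCOS 1.4 and MAS5 stand in the submitters' processing notes, as do RMA, Partek and R 2.6.1, without a stated role for any of them, and the mean of each array after trimming 2% at each end (493.3 to 498.4) shows a common scaling. Per the labels' protocols the target was whole-transcript sense DNA, while the series' design text names single-cycle labelling. The authors' deposited table adds a fold (signed, as a score below 0 for falls), a p-value and a call (test and rule: not given in the sources used here). Unmatched sample columns numbered 0.

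The intensities were floored at 16 before the log2 step, which understates folds of dim genes. limma 3.58.1 in R 4.3.3 (lmFit, eBayes) was fitted to all 12 arrays with 1 mean per treatment, and p-values were Benjamini-Hochberg adjusted over 54613 probe sets with a threshold of 0.05. Each of 19682 genes is its probe set with the highest mean log2 value, and 39873 probe sets carried 1 symbol, 1522 several, 13164 none and 54 a symbol turned into a calendar entry. The fit was tested on simulated data. Tables were made with pandas 2.3.3 and numpy 2.4.6 in Python 3.11.15, and plots with matplotlib 3.10.9. The number of arrays limits the precision.

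The members and lists were chosen with earlier results of these data known. Named genes are the 16 largest rises and 16 largest falls among called genes whose 4 seminal plasma arrays lay at least 1 log2 unit from the control mean and beyond all controls, up to 4 called members of each list (or the 2 with the smallest p), the 6 with the widest gap each way between replicates 1, 2 and 3, 4 with a signal of at least 200 in the higher pair, and CSF2, IL6, CXCL8, CCL20, PTGS2, IL1A, IL1B, MT2A and CYP1A1. Other called list members named without values, and genes marked so in the text, were chosen after their values were seen. Lists are given as counts and medians without a set test, and some genes that the rule names, with 1 list, are not reported here. Replicate numbers were not used to pair the samples in the fit. Deviations of same-numbered control and seminal plasma arrays correlated between -0.00 and 0.043, and those of control and TGFB3 arrays between -0.005 and 0.154. These values do not settle whether same-numbered arrays were matched. Alternatives were other scalings, floors, filters, spread models, probe set rules, a replicate block and left-out arrays.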

Additional observations from a re-analysis of the deposited data

Results flagged for a closer look

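In groups of 4 arrays, 13 of 268 gene and group combinations of the named genes (4.85%) had a highest or lowest array farther from its nearest neighbour than Dixon's critical value for 4 samples allows. For 4 of these, LYZ, RCSD1, RTP4 and CYP1A1, the other 3 arrays lay at the floor, which by itself sets the ratio to its maximum, so the ratio is no sign of a distant array. The array so marked lay just over the floor for LYZ (21.6), RCSD1 (16.5) and RTP4 (20.6), but well over it for CYP1A1 (147). The other 9 stand among 263 combinations with at most 2 arrays at the floor (3.42%), where chance gives about 1 in 20. On seminal plasma replicate 2 the signal stood above the other 3 treated arrays for CYP1A1 (147), SPARC (1110), SREBF2 (864), TXNIP (7272) and USP18 (113), which lies toward the controls in each case. On seminal plasma replicate 3 it stood above the others for LYZ (21.6), RCSD1 (16.5) and RTP4 (20.6), where the other 3 were under the floor of 16. On seminal plasma replicate 4 UGT1A6 (95.6) lay under the others, at 151 to 163. Among the controls the distant arrays were control 2 for ACTN1 (16923) and SNAI2 (4962), control 4 for PER1 (1444) and control 1 for PSMD2 (6345), each above the other 3.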

How the results depend on the processing

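Of the alternatives, these kept the counts within 1.5 times the reported 1608 probe sets and 630 genes: quantile normalization, a floor of 64, array weights, a log2 fold change of at least 1, and the median over probe sets. Fewer passed after median centring (787 and 262 genes), with a floor of 1 (733 and 267), on the 8 arrays alone (197 and 83), with a separate spread per group (11 and 8) and without seminal plasma replicates 3 and 4 together (539 and 206). More passed with a mean signal of at least 100 (3898 and 1608), with an intensity trend and robust option (3666 and 1522), without seminal plasma replicates 1 and 2 together (16569 and 6229), and with replicates 1 and 2 against 3 and 4 as a term, chosen after seeing the data (2947 and 1094). Leaving out each array in turn gave 270 to 8900 probe sets and 96 to 3368 genes, with the fewest without control replicate 4 and the most without seminal plasma replicate 2. With the replicate block 307 probe sets and 104 genes passed, 100 of them among the 630, and whether the numbers pair the samples was not settled. The causes were not tested. Of 103 named genes that were called, 62 lost the call without seminal plasma replicates 3 and 4, 99 with a separate spread per group, 73 on the 8 arrays alone, 70 with the replicate block, 69 without control replicate 4 and 39 after median centring, and no called gene changed sign under any alternative. Signal near the floor limits the folds of dim genes.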
